A study of Mus musculus with 9 samples.

Results

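Interleukins and their receptors were followed on 9 dual-colour arrays of sorted mouse mammary tumour cells, 5 of cells treated with the Wnt inhibitor Fzd8-CRD and 4 of control cells. Members were all 126 probes, of 41174 that were not array controls, whose gene name in the Fzd8-CRD scanner files began with Il and a digit. They covered 84 of 27845 gene names on the array. By name, 49 probes (39 genes) were ligands, with the receptor antagonist Il1rn counted among them, 74 probes (43 genes) were receptors, and 3 probes (2 genes) were neither, being the soluble binding protein Il18bp and the enzyme Il4i1. Names are those of the array's design: Il8ra and Il8rb are older names of the chemokine receptors Cxcr1 and Cxcr2, and Il28 and Il28ra are now Ifnl3 and Ifnlr1.

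Interleukins are secreted signals that pass mainly between immune, stromal and epithelial cells. Most bind a receptor pair made of a private chain and a chain shared with other ligands, and signal through Jak kinases and Stat factors, whereas members of the Il1 and Il17 families signal through adaptor proteins to NF-kappaB. In mammary tumours they are known both as products of the tumour cells themselves, as for Il6 and Il11, and as products of the immune cells among them, and decoy receptors such as Il1r2 and antagonists such as Il1rn limit the signal.

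Fzd8-CRD is the extracellular cysteine-rich domain of a Frizzled receptor, used in soluble form to capture Wnt proteins outside the cell. All cells came from MMTV-Wnt-1 and MMTV-Her2 tumours, whose transgenes are driven by a mammary tumour virus promoter, and were freshly isolated and sorted as GFP-negative. Both tumour models are named for every array, so the models cannot be told apart. The treatment text names the inhibitor for all 9 arrays, and the labels do not say what the controls received. Strain, age, dose and duration are not given in the labels. The design text calls the arrays biological replicates. Cy5 carried the RNA of the cells and Cy3 a pooled reference, for which the labels do not say whether 1 preparation served both groups, and values below are log2 ratios of Cy5 over Cy3, with differences as Fzd8-CRD minus control. All 6 epithelial markers (Epcam, Krt8, Krt18, Cdh1, Krt5 and Krt14) were well above background on all arrays.

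All 4 controls lay on a single slide with 1 scan day, and 4 different slides, scanned 367 or 378 days later, held the 5 Fzd8-CRD arrays, so slide and treatment cannot be told apart. Of all probes, 52.4% to 60.0% were well above background in Cy5 on Fzd8-CRD arrays and 63.8% to 70.8% on control arrays, and the reference in Cy3 had the same order (58.6% to 65.7% against 71.8% to 74.9%). Control replicate 2 stood apart: its correlations with the remaining arrays, across genes, were 0.618 to 0.737, and its median over 10 lymphocyte markers, as log2 deviation from each gene's mean, was 2.05, against -0.34 to -0.11 on Fzd8-CRD arrays and -0.26 to -0.05 on the other controls. Its medians for macrophage (0.91), neutrophil (1.37), mast cell (3.19) and fibroblast markers (1.93) were also the highest of the 9 arrays. Counts and called members are therefore given with and without it. In such bulk RNA, fewer cells of a type and less RNA per cell cannot be told apart.

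The sequences below belong to 3 of the members that fell, Il6, Il1a and Il15ra. The promoters, the 250 bases before the start of the gene in the RefSeq table (build GRCm38.p6), are shown because Il6 and Il1a are ligands that both fell. Capitals mark matches, on either strand, to the NF-kappaB consensus motif or to TGANTCA, the AP-1 motif. The Il6 window is chr5:30012864-30013113 on the plus strand and the Il1a window chr2:129309973-129310222 on the minus strand.
Il6: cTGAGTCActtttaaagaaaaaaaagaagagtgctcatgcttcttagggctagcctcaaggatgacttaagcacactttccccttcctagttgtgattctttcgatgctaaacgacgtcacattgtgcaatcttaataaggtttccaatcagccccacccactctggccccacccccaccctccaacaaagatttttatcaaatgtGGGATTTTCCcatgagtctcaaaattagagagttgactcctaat
Il1a: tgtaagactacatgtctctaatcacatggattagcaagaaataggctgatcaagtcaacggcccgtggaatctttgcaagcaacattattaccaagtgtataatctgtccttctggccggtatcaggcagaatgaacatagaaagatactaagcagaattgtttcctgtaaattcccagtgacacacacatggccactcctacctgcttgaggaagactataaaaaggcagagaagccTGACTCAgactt
The Il6 window held 1 match to each motif, with its NF-kappaB match starting 44 bases before the gene start, and the Il1a window held 1 AP-1 match starting 12 bases before it. Among the windows of the called receptors, the 3 of Il18r1 and the 2 of Il1rl1 held neither motif, and 1 of 2 Il15ra windows held the AP-1 motif and 0 the NF-kappaB motif. Of all 32851 such windows in the table, 3.9% held the NF-kappaB motif and 6.75% the AP-1 motif. Among the ligand windows 3 of 39 (7.69%) and 8 of 39 (20.5%) did, and among the receptor windows 2 of 42 (4.76%) and 6 of 42 (14.3%), several windows belonging to the same gene. The windows do not cover all ligands: the table held none for Il23a, and Il17b was left out of the count. Another NF-kappaB form was searched first, stricter than the consensus at some positions and looser at another. It was in 1.41% of all windows, 10.3% of ligand windows and 4.76% of receptor windows. A match is a description of the letters only.

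The array's probes are 60 bases long, and 3 of them are shown because they read Il15ra and Il1a, which fell, across exon junctions. The Il15ra probes, as given in the control arrays' files, map across 6987 and 6502 bases of chromosome 2 (mm8 coordinates in the Fzd8-CRD files, plus strand): chr2:11641451-11648437 for A_51_P202292 and chr2:11641979-11648480 for A_52_P55902. The 17 bases they share are in capitals.
A_51_P202292: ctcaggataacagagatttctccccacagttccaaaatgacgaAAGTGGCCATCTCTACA
A_52_P55902: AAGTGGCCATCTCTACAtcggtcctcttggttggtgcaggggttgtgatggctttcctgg
One Il1a probe, A_51_P438283, also crosses a junction (chr2:128994430-128996164, mm8, minus strand).
A_51_P438283: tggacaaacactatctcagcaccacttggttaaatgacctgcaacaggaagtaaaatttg
Both Il15ra probes overlap in transcript sequence and are therefore not independent readings.

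Detection of the interleukins was lower in Fzd8-CRD cells than in controls on every array, as was detection of probes at large. Ligand probes well above background numbered 21, 20, 16, 13 and 15 of 49 on the 5 Fzd8-CRD arrays, against 32, 34, 30 and 33 on the controls. Receptor probes numbered 35, 39, 32, 35 and 34 of 74 on the Fzd8-CRD arrays, against 43, 49, 47 and 48 on the controls. The groups did not overlap for either class, and the same held for the share of all probes; the part of overall signal in these counts was not tested. Of the 126 probes, 44 were well above background on all 9 arrays and 27 on none. A further 31 were above it on at least 1 control array and on no Fzd8-CRD array (18 ligand and 13 receptor probes), and 2 on at least 1 Fzd8-CRD array and on no control, a probe of Il3 and 1 of 3 probes of Il1rl1, each on 1 array. Shares of all probes with these patterns are not given here, so the counts are not set apart from the lower detection of probes at large.

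**Figure D1:**
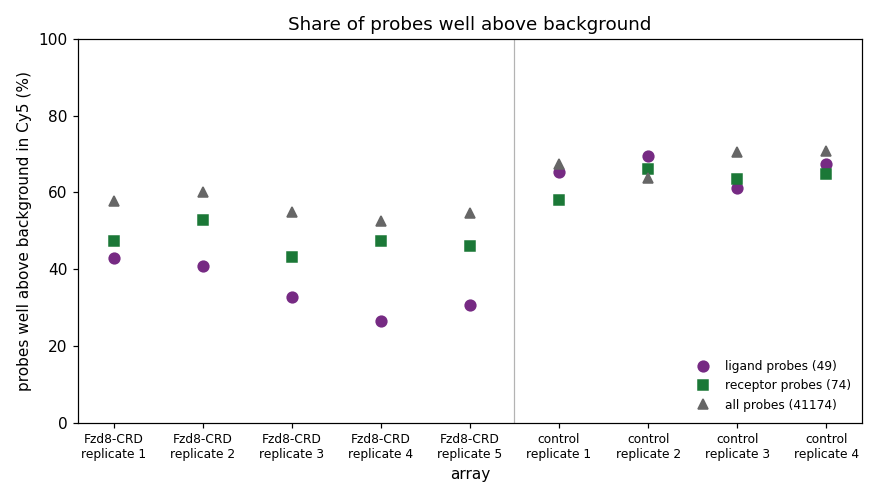
Percentage of ligand probes (49), receptor probes (74) and all probes (41174) that passed the scanner's background mark (Cy5) on each array, Fzd8-CRD arrays on the left and control arrays on the right. Ligand and receptor shares were lower on all 5 Fzd8-CRD arrays than on all 4 controls, and the share of all probes had the same order.

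A probe was tested if it was well above background on at least 4 arrays, and the brightest kept probe stood for its gene. This kept 69 probes of 53 member genes (20 of 39 ligands, 31 of 43 receptors and both others), while 31 genes did not pass. The filter can be passed through the controls alone, as it was by Il1a, Il22ra1 and Il18rap, so counts over the tested genes do not describe all members. The untested ligands were Il3, Il4, Il5, Il7, Il9, Il12a, Il12b, Il17a, Il17c, Il17f, Il1f6, Il1f9, Il1f10, Il20, Il21, Il22, Il25, Il28 and Il31, many of them products of T helper and other lymphoid cells or of epithelium in inflamed skin. Il7, whose receptor Il7r marks lymphocytes, was above background with 1 of 3 probes on 1 control array. Il12b, the chain shared by the ligands that contain Il12a or Il23a, was above background on 1 control array and on 0 Fzd8-CRD arrays. The 12 untested receptors were Il2ra, Il5ra, Il7r, Il8ra, Il8rb, Il9r, Il12rb2, Il13ra2, Il1rapl1, Il22ra2, Il23r and Il31ra. Il7r was above background with 1 of 3 probes, on 3 control arrays, and Il2ra, the high-affinity chain of activated T cells, with 1 of 4 probes on 1 control array.

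Among the 20 ligands tested, Il6, Il23a and Il1a fell and 0 rose in limma's linear model (Benjamini-Hochberg adjusted p under 0.05 among 18267 genes). Il1a had no Fzd8-CRD array above background and was tested through its controls alone, so its count as a call describes the ratio and no measured level in Fzd8-CRD cells. At an unadjusted p under 0.05, 1 ligand was higher and 7 were lower, against 2625 higher and 3220 lower of all 18267 genes. The 3 calls were 15.0% of the ligands, against 14.3% of all genes called in either direction, 7.76% lower and 6.58% higher. The median difference was -0.25 over the ligands and -0.07 over all genes. Groups did not overlap for 3 ligands (Il6, Il23a and Il15), all lower, against 11.7% of all genes. Without control replicate 2, Il6 and Il23a fell and Il18 rose, with 17% of all genes called (9.58% lower and 7.38% higher), and the ligand median was -0.22 against -0.04 over all genes. Scaling between arrays gave 1 higher and 1 lower ligand, with 992 of all genes higher and 1098 lower (11.4%). Over all genes the fit on loess ratios gave 1202 higher and 1418 lower, and the scanner's own log ratio 1553 higher and 1216 lower.

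**Figure D2:**
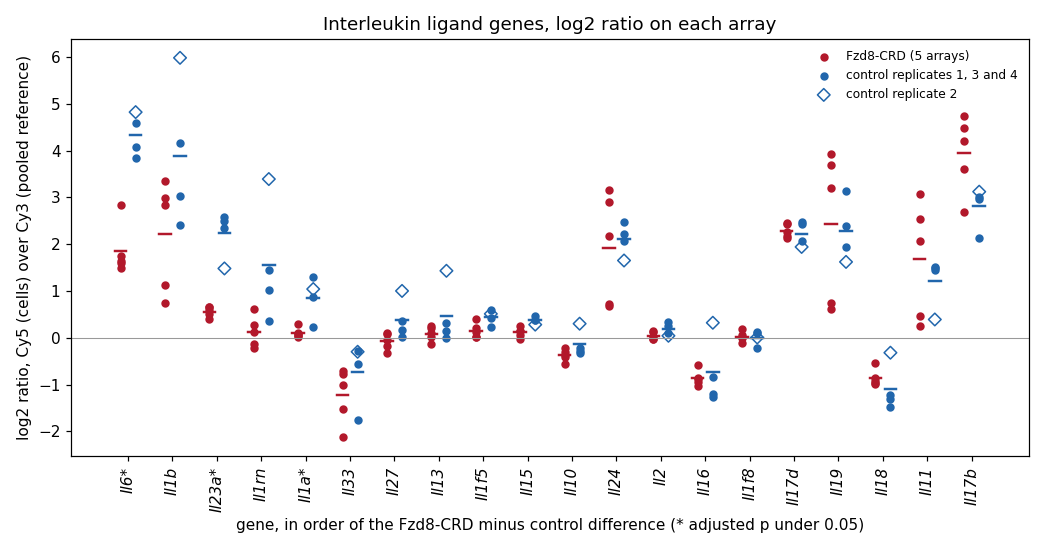
Log2 ratios of Cy5 over Cy3 for the 20 tested ligand genes, in order of the difference, with Fzd8-CRD arrays to the left of control arrays at each gene, bars at group means and control replicate 2 as an open diamond. Il6 and Il23a were lower on all Fzd8-CRD arrays than on all controls, and Il11, Il19 and Il24 were spread over a wide range within the Fzd8-CRD group.

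Il6 (chr5:30350609-30350668, mm8), an inflammatory cytokine that signals through Il6ra and the shared chain Il6st to Stat3, fell most. Its log2 ratio was 2.84, 1.5, 1.59, 1.63 and 1.75 on the Fzd8-CRD arrays, against 4.58, 4.82, 3.83 and 4.07 on the controls. The difference was -2.47 (SE 0.31, adjusted p = 0.00346), or 5.52-fold lower, and the groups did not overlap although Fzd8-CRD replicate 1 stood above its group. When control replicate 2 was left out it was -2.30 (adjusted p = 0.00565). The Cy5 signal alone differed by -2.20 (adjusted p = 0.00318), while the Cy3 reference differed by -0.10 (adjusted p = 0.0295). The call was kept with each array left out in turn (adjusted p 0.00268 to 0.0125), and scaling between arrays ended it (-1.13, adjusted p = 0.0985, where the 23 alternatives ran from 0.000503 to 0.0985).

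Il23a (chr10:127699659-127699718, mm8) encodes the private chain of a heterodimer completed by Il12b, known for maintaining T cells that produce Il17a. Its ratio was 0.50, 0.60, 0.66, 0.65 and 0.39 on Fzd8-CRD arrays, against 2.59, 1.48, 2.35 and 2.50 on controls. Every Fzd8-CRD array lay below every control, and control replicate 2 was the lowest control rather than the highest. The difference was -1.67 (SE 0.22, adjusted p = 0.0039) and -1.92 without control replicate 2 (adjusted p = 0.000415). Cy5 alone gave -1.03 (adjusted p = 0.0142). In the scanner's own log ratio it was -0.87 (adjusted p = 0.199, within a range of 3.9e-05 to 0.202 over the alternatives). Of its receptor chains, Il23r was above background on no array.

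Il1a and Il1b encode the 2 agonists that act on Il1r1 with its partner Il1rap, and Il1rn their antagonist. Il1a (chr2:128991699-128991758, mm8) was well above background on all 4 controls and on none of the 5 Fzd8-CRD arrays. Its ratio was 0.29, 0.10, 0.07, 0.01 and 0.07 on Fzd8-CRD arrays, against 0.22, 1.04, 0.86 and 1.30 on controls. Control replicate 1 lay within the Fzd8-CRD range, so the groups overlapped. The difference was -0.75 (SE 0.20, adjusted p = 0.0361), while Cy5 alone gave -0.38 (adjusted p = 0.113). With no Fzd8-CRD array above background the size of the difference was not measured. The junction probe printed above gave a ratio difference of -0.65. Leaving out any 1 array other than control replicate 1 ended the call (adjusted p up to 0.0843), and without control replicate 2 it was -0.69 (adjusted p = 0.06).

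Il1b was 3.35, 2.98, 1.12, 2.83 and 0.75 on Fzd8-CRD arrays, against 3.02, 5.98, 2.40 and 4.16 on controls, a difference of -1.69 (SE 0.79, adjusted p = 0.172) with overlapping groups. Il1rn was 0.61, -0.21, 0.12, 0.27 and -0.14, against 1.01, 3.39, 0.35 and 1.44 on controls (-1.42, SE 0.52, adjusted p = 0.0961). Without control replicate 2, which was highest for both genes, the differences were -0.99 (adjusted p = 0.333) and -0.80 (adjusted p = 0.0725). Il33, another Il1 family member, released from damaged barrier cells, was -0.71, -0.77, -1.02, -2.12 and -1.52 on Fzd8-CRD arrays, against -1.75, -0.30, -0.57 and -0.29 on controls (-0.50, adjusted p = 0.377). Il18, which inflammasomes activate as they do Il1b, was -0.87, -0.98, -0.92, -0.97 and -0.53, against -1.49, -0.32, -1.30 and -1.23 on controls. Its difference was 0.23 with all arrays (adjusted p = 0.51) and 0.48 without control replicate 2 (adjusted p = 0.0399), where the Fzd8-CRD arrays all lay above the remaining controls. In Cy5 alone Il18 differed by -0.09.

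Il17b and Il17d, members of the Il17 family expressed outside the T cell compartment, were read on all 9 arrays. Il17b had the largest positive difference among the ligands. It was 4.49, 4.73, 2.69, 4.21 and 3.61 on Fzd8-CRD arrays, against 2.13, 3.12, 3.01 and 2.97 on controls (1.14, SE 0.40, adjusted p = 0.0872, and 0.00505 to 0.225 over the alternatives). Fzd8-CRD replicate 3 lay within the control range. Cy5 alone, which called 18.9% of all genes, gave 2.14 (adjusted p = 0.00505) and the Cy3 reference itself differed by 0.37. Scaling between arrays gave 2.54 (adjusted p = 0.0361). Il17d was 2.13 to 2.45 on Fzd8-CRD arrays and 1.94 to 2.47 on controls (0.06, adjusted p = 0.806), whereas Cy5 alone gave 0.89 (adjusted p = 0.013) and the Cy3 reference differed by 0.46.

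Il15, which supports natural killer and memory T cells, had -0.02, 0.26, 0.15, 0.14 and 0.05 on Fzd8-CRD arrays, against 0.38, 0.28, 0.47 and 0.37 on controls. The groups did not overlap, yet the difference of -0.26 did not pass (adjusted p = 0.118). Its dimmer probe, at another place in the gene, gave 0.02, -0.06, -0.16, -0.27 and -0.01 on Fzd8-CRD arrays, against 0.42, 0.44, 0.41 and 0.66 on controls, and passed when each kept probe was tested on its own (-0.58, adjusted p = 0.0114, with 14.6% of 26823 probes called). Another 7 ligands did not pass with all arrays (Il2, Il10, Il13, Il16, Il27 and the Il1 family members Il1f5 and Il1f8). Their ratio differences lay between -0.46 and 0.02. The background mark was passed on 1 Fzd8-CRD array for Il2 and Il10 and on 2 for Il16, Il1f5 and Il1f8. Il16 differed by -0.11, and by 0.24 without control replicate 2. Cy5 alone gave -0.70 for Il16 (limma, adjusted p = 0.0474), while its Cy3 reference differed by -0.38. The scanner's log ratio passed for Il16 (-1.77, adjusted p = 0.038) and Il10 (-1.60, adjusted p = 0.0126).

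Within the Fzd8-CRD group the tested ligands with the highest SDs over the 5 arrays were Il19 (1.62), Il11 (1.26), and Il24 and Il1b (1.18 each), against a median SD of 0.236 over all genes. The values of Il1b, given above, had another order of arrays. Il11, a relative of Il6 that also signals through Il6st, was 0.46, 0.25, 2.53, 3.08 and 2.06 on Fzd8-CRD arrays, against 1.51, 0.39, 1.5 and 1.44 on controls. Il19 was 0.62, 0.75, 3.92, 3.68 and 3.19, against 1.94, 1.62, 2.39 and 3.14 on controls. Il24 was 0.68, 0.71, 2.91, 3.15 and 2.17, against 2.47, 1.65, 2.06 and 2.22 on controls. For Il11, Il19 and Il24 Fzd8-CRD replicates 1 and 2 were low and replicates 3, 4 and 5 high, and the second Il24 probe had the same order (0.20, 0.10, 1.84, 2.26 and 1.0, against 1.96, 1.09, 1.83 and 1.86 on controls). Group means differed by 0.47 for Il11 (adjusted p = 0.606), 0.16 for Il19 (adjusted p = 0.9) and -0.18 for Il24 (adjusted p = 0.843). Their 95% intervals, -0.86 to 1.79, -1.52 to 1.84 and -1.38 to 1.02, are too wide to call the differences small. Cy5 alone gave 0.70, 1.16 and 0.28, and the second Il24 probe a ratio difference of -0.60, none of them past the threshold.

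Il19 and Il24 belong to the family of Il10 and lie with Il20 and Il10 within 142.2 kb of chromosome 1 (chr1:132709749-132851971, mm8). For their neighbours no order among the Fzd8-CRD arrays can be read, since Il20 was above background on no array and Il10 on 1 of 5 Fzd8-CRD arrays. The Il10 ratio was -0.31, -0.57, -0.37, -0.42 and -0.22 on Fzd8-CRD arrays, against -0.28, 0.30, -0.23 and -0.33 on controls. The brightest probe of Il20rb, the receptor chain that Il19 and Il24 both use, ran the other way within the group: 3.48 and 3.52 on Fzd8-CRD replicates 1 and 2 and 2.13, 2.17 and 2.50 on replicates 3, 4 and 5, against 2.84, 1.49, 2.97 and 3.01 on controls. A dimmer Il20rb probe, also above background on all 9 arrays, did not show this split (-0.06, 0.14, 0.02, 0.17 and -0.19 on Fzd8-CRD arrays, against 0.42, -0.63, -0.17 and -0.40 on controls), so the probes disagree. Replicates 1 and 2 were on different slides and replicate 1 shared a slide with replicate 4. Fibroblast marker medians were 0.44 and -0.09 on replicates 1 and 2 and -1.34, -1.17 and -0.60 on replicates 3, 4 and 5, against -1.03, 1.93, 1.21 and 0.77 on controls, and their part in the pattern was not tested. No label separates these arrays, so their difference was not tested either.

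**Figure D3:**
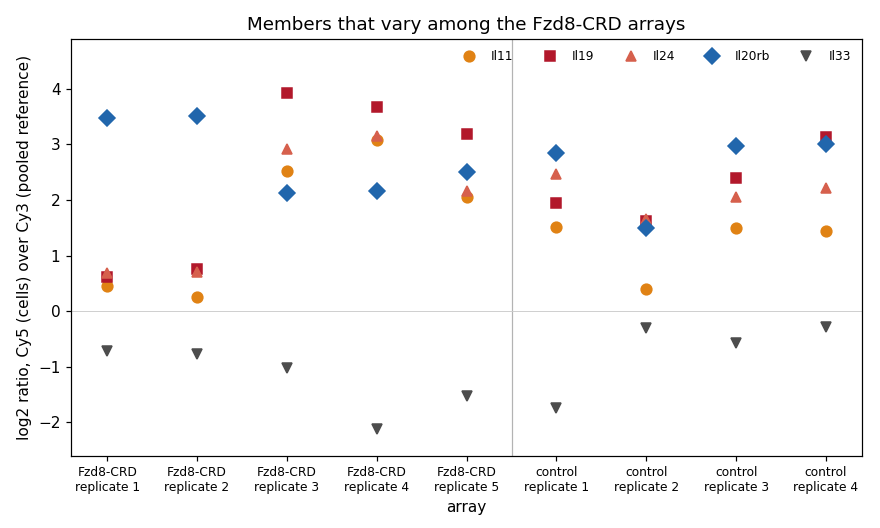
Log2 ratio of Cy5 over Cy3 of Il11, Il19, Il24, Il20rb and Il33 on each array, Fzd8-CRD arrays on the left and control arrays on the right. Il11, Il19 and Il24 lie between 0.25 and 0.75 on Fzd8-CRD replicates 1 and 2 and between 2.06 and 3.92 on replicates 3, 4 and 5, while the brightest Il20rb probe is higher on replicates 1 and 2.

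Among the 31 receptors tested, Il15ra, Il1rl1 and Il18r1 fell and 0 rose (limma, Benjamini-Hochberg), which is 9.68% called, below the 14.3% of all genes. At an unadjusted p under 0.05, 1 receptor was higher and 5 were lower, against 2625 higher and 3220 lower of all 18267 genes. The median difference was -0.13 over the receptors, against -0.07 over all genes. Groups did not overlap for 4 receptors, all lower (Il15ra, Il18r1, Il1r2 and Il22ra1), against 11.7% of all genes. Il22ra1 was above background on no Fzd8-CRD array and was tested through its controls alone, so its place in this count describes no measured level in Fzd8-CRD cells. When control replicate 2 was left out only Il15ra fell and Il12rb1 rose (6.45%, against 17% of all genes), and the receptor median was 0.03, against -0.04 over all genes, so the direction of the median turned. Scaling between arrays gave 2 higher and 0 lower receptors, where 11.4% of all genes passed.

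**Figure D4:**
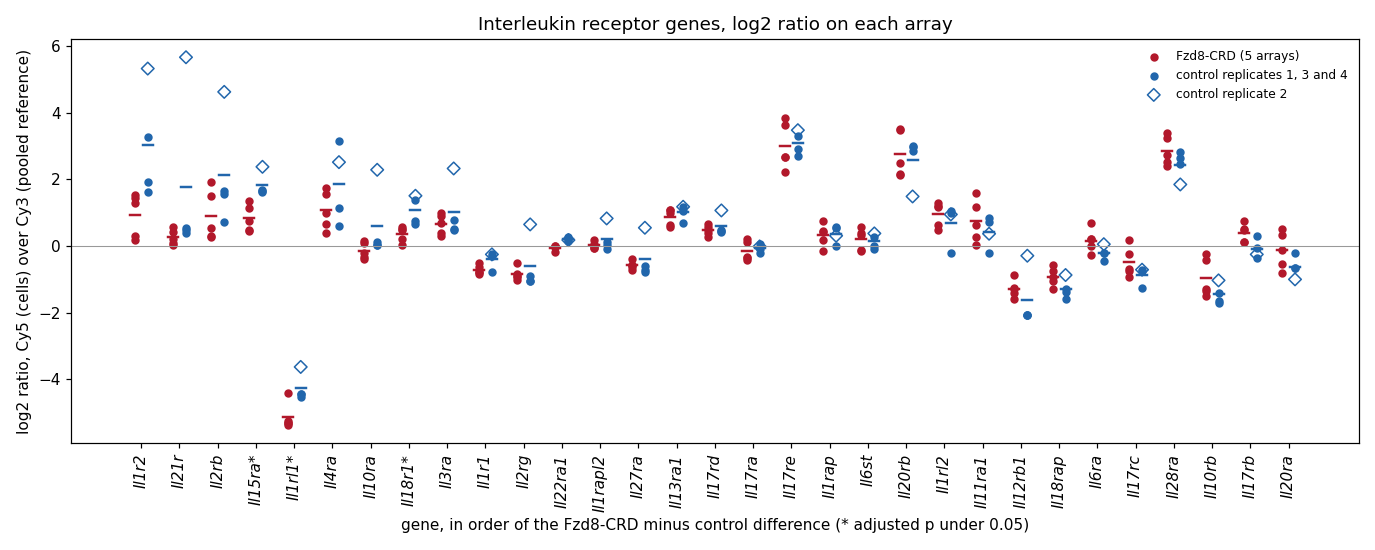
Log2 ratios of Cy5 over Cy3 for the 31 tested receptor genes, in order of the difference, with Fzd8-CRD arrays to the left of control arrays at each gene, bars at group means and control replicate 2 as an open diamond. Control replicate 2 lies far above all other arrays for Il21r (5.67), Il2rb (4.63) and Il10ra (2.29).

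Il15ra (chr2:11641979-11648480, mm8), which presents Il15 to neighbouring cells, was 0.45, 0.49, 1.14, 1.34 and 0.74 on Fzd8-CRD arrays, against 1.61, 2.38, 1.69 and 1.64 on controls. All Fzd8-CRD arrays lay below all controls. The difference was -1.0 (SE 0.24, adjusted p = 0.0242), or 2.0-fold lower, and -0.81 without control replicate 2 (adjusted p = 0.0344). The overlapping probe read 0.20, 0.21, 0.50, 0.61 and 0.31 on Fzd8-CRD arrays, against 1.17, 0.34, 1.35 and 1.39 on controls (-0.70, adjusted p = 0.0584 over all kept probes), and put control replicate 2 at the low end of the controls where the brighter probe put it at the top. The call was lost without Fzd8-CRD replicate 1 (-0.90), 2 (-0.91) or 5 (-0.98) or control replicate 3 (-1.05), at adjusted p up to 0.0583, and in the scanner's log ratio (-0.42, adjusted p = 0.489).

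The Il1 receptor family has 6 members within 436.8 kb of chromosome 1 (chr1:40056672-40493489, mm8), in the order Il1r2, Il1r1, Il1rl2, Il1rl1, Il18r1 and Il18rap, of which 2 were called. Il1rl1, the receptor of Il33, and Il18r1, the ligand-binding chain for Il18, fell. Il18rap, the accessory chain that pairs with Il18r1, differed by 0.36 (adjusted p = 0.214), was below background on all Fzd8-CRD arrays and was above it on all controls, so its ratio holds no measured level in Fzd8-CRD cells. Il1rl2 differed by 0.26 (adjusted p = 0.564) and Il1r1, the signalling receptor for Il1a and Il1b, by -0.32 (adjusted p = 0.166). For Il1r1 the direction was not settled, since Cy5 alone gave 0.34 (adjusted p = 0.0692) and the Cy3 reference differed by 0.53.

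Il1rl1 (chr1:40392470-40392529, mm8) lay far below the reference in both groups, at -5.37, -4.40, -5.25, -5.32 and -5.30 on Fzd8-CRD arrays, against -4.43, -3.63, -4.54 and -4.43 on controls. The difference was -0.87 (SE 0.25, adjusted p = 0.0488), and Fzd8-CRD replicate 2 lay within the control range. A second probe gave -0.70 (adjusted p = 0.0615 over all kept probes). Another, too dim to be kept, went the other way (0.66) and was above background on 1 Fzd8-CRD array and on no control. With 1 array left out in turn, the call held only without Fzd8-CRD replicate 2 (adjusted p 0.0204 to 0.106 over the 9 fits), and without control replicate 2 it was -0.66 (adjusted p = 0.073). Scaling between arrays gave -3.05 (adjusted p = 0.089), and Cy5 alone -0.51 (adjusted p = 0.119), while the Cy3 reference differed by 0.26. Mast cells carry Il1rl1, and 2 of 5 mast cell markers fell, where 7.76% of all genes were called lower. Their list medians were -0.82 to -0.64 on Fzd8-CRD arrays, against -0.05 to 3.19 on controls. Cpa3, Mcpt4 and Tpsb2 were above background on no Fzd8-CRD array and on all controls, and their part in the Il1rl1 result was not tested.

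Il18r1 (chr1:40445242-40445301, mm8) was 0.22, 0.56, 0.47, 0.52 and 0.03 on Fzd8-CRD arrays, against 0.76, 1.51, 0.66 and 1.39 on controls. The groups did not overlap, and the difference was -0.72 (SE 0.21, adjusted p = 0.0482). With 1 array left out in turn, its call held only without control replicate 1 or 3, with adjusted p up to 0.115 in the other fits, among them -0.58 without control replicate 2 (adjusted p = 0.0778). In Cy5 alone it was -0.30 (adjusted p = 0.303).

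Il1r2, a decoy that binds Il1b without signalling, had the largest difference among the receptors but did not pass. It was 1.43, 1.53, 0.29, 1.29 and 0.18 on Fzd8-CRD arrays, against 1.93, 5.33, 1.61 and 3.27 on controls (-2.09, SE 0.70, adjusted p = 0.0744). The groups did not overlap, and its dimmer probe gave -1.36 (adjusted p = 0.0939 over all kept probes). Without control replicate 2 the difference was -1.33 (adjusted p = 0.0785). Il1rap, the accessory chain, differed by -0.03 at its brighter probe (adjusted p = 0.937), whereas its other kept probe read -0.28, -0.36, -0.07, -0.31 and 0.00 on Fzd8-CRD arrays, against -0.87, -0.67, -0.98 and -0.75 on controls, and was higher by 0.61 (adjusted p = 0.0127 over all kept probes). The 2 probes lie at different places of the gene and disagree.

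For 5 receptors of lymphoid and myeloid cells, control replicate 2, the array with the high lymphocyte median, stood above the other 8 arrays, and the part of those cells was not tested. Il21r was 0.21, 0.42, 0.04, 0.57 and 0.08 on Fzd8-CRD arrays, against 0.55, 5.67, 0.39 and 0.47 on controls. Its difference of -1.51 (adjusted p = 0.314) shrank to -0.21 without control replicate 2. Il2rb, which with Il2rg makes the receptor of Il2 and Il15, was 1.51, 0.55, 0.28, 1.91 and 0.30, against 1.66, 4.63, 0.71 and 1.56 on controls (-1.23, and -0.40 without control replicate 2, adjusted p = 0.27 and 0.541). Il10ra was 0.14, -0.32, -0.39, 0.10 and -0.20, against 0.11, 2.29, 0.02 and 0.04 on controls (-0.75, and -0.19 without that array). Il2rg, the chain shared by the Il2 family receptors, differed by -0.25 with all arrays and by 0.17 without control replicate 2, and Il27ra by -0.19 and 0.12. Il2rg and Il27ra were above background on all controls and on 1 of 5 Fzd8-CRD arrays, and Cy5 alone gave -0.64 and -0.41. None of these 5 genes passed the test with or without control replicate 2.

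Il12rb1, which Il12a- and Il23a-containing ligands share, was -1.29, -1.58, -1.27, -1.42 and -0.88 on Fzd8-CRD arrays, against -2.08, -0.29, -2.06 and -2.08 on controls. It differed by 0.34 with all arrays (adjusted p = 0.542) and rose by 0.78 without control replicate 2 (adjusted p = 0.0143). All controls and 1 of 5 Fzd8-CRD arrays were above background for it, and Cy5 alone gave -0.39 while the Cy3 reference differed by -0.33 between the groups, whose part was not tested. Il12rb1 and Il18 were named because they passed in that fit.

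**Figure D5:**
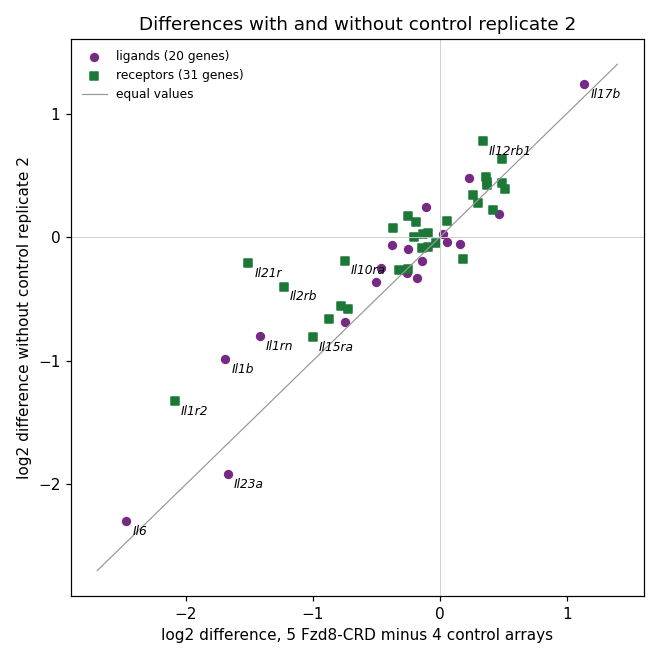
Fzd8-CRD minus control log2 differences of the 20 tested ligand and 31 tested receptor genes with all arrays (x axis) and without control replicate 2 (y axis), with a line at equal values. Il6 (-2.47 and -2.30) and Il23a (-1.67 and -1.92) stay near the line, and Il21r (-1.51 and -0.21) and Il2rb (-1.23 and -0.40) move toward 0.

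None of the other receptor chains passed the test. Il6ra and Il6st, the receptor pair of Il6, differed by 0.37 (adjusted p = 0.219) and 0.06 (adjusted p = 0.857), and Il11ra1 by 0.30 (adjusted p = 0.553). Il4ra was 0.67, 0.38, 1.74, 1.57 and 1.0 on Fzd8-CRD arrays, against 3.14, 2.52, 1.15 and 0.60 on controls (-0.78, adjusted p = 0.318), and its partner Il13ra1 differed by -0.14. The chains of the Il17 family were well above background on all arrays by their brightest probes. Il17ra differed by -0.10, Il17rc by 0.37, Il17re by -0.09 and Il17rb, the receptor of Il17b, by 0.49 (adjusted p = 0.1). A second kept Il17rc probe gave 0.09, and other probes of Il17rb, Il17rc and Il17re were too dim to be kept. Il10rb, shared by Il10 and the interferon lambda ligands, differed by 0.49 (adjusted p = 0.268), Il28ra by 0.42 and Il20ra by 0.51 (adjusted p = 0.249), and 95% intervals of these 3 ran from -0.17 to 1.15. Il22ra1 was well above background on all controls and on none of the Fzd8-CRD arrays, with a ratio difference of -0.25 (adjusted p = 0.106) and -0.45 in Cy5 alone (adjusted p = 0.024). Il3ra differed by -0.37 (adjusted p = 0.508), Il1rapl2 by -0.20 and Il17rd by -0.13, and the 2 members outside both classes, Il18bp and Il4i1, by -0.13 and -0.07, none of them past the threshold.

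Of 34 tested genes of interleukin signalling, a list of Jak kinases, Stat factors, adaptors, NF-kappaB subunits and feedback inhibitors, 3 rose and 1 fell (11.8%, against 14.3% of all genes), with a median difference of 0.06. Socs3, a feedback inhibitor of Il6 family signals, was 1.62, 2.03, 1.30, 1.71 and 1.90 on Fzd8-CRD arrays, against -0.31, 0.76, 0.78 and 0.92 on controls (1.17, SE 0.26, adjusted p = 0.0193). Stat3, the factor those signals activate, was 2.83, 3.32, 2.13, 3.43 and 2.36, against 1.35, 2.0, 2.04 and 1.66 on controls (1.05, SE 0.29, adjusted p = 0.0412). All Fzd8-CRD arrays lay above all controls for both genes, while the ligand gene Il6 was lower on all Fzd8-CRD arrays than on all controls. The share of all genes with every Fzd8-CRD array above every control is not given here. Cy5 alone gave 1.16 for Socs3 (adjusted p = 0.0128) and 0.46 for Stat3 (adjusted p = 0.201). Stat6, which acts below Il4ra, rose by 0.55 (adjusted p = 0.0439), and Nfkbiz, an NF-kappaB cofactor needed for Il6 induction in mouse macrophages, fell by 0.61 (adjusted p = 0.0497). When control replicate 2 was left out, 2 rose (Socs3 by 1.25 and Stat3 by 1.12) and 0 fell, which is 5.88%, against 17% of all genes. In that fit 8 were higher and 2 lower at an unadjusted p under 0.05, against 2723 higher and 3483 lower of all 18267 genes.

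Of 21 tested cytokine and receptor genes of the same families under other names, 4 rose and 1 fell (23.8%, against 14.3% of all genes), with a median difference of -0.03. Osmr and Lifr, which pair with Il6st to receive the Il6 relatives oncostatin M and leukaemia inhibitory factor, rose. Osmr was 1.78, 2.02, 1.92, 2.61 and 2.25 on Fzd8-CRD arrays, against 1.13, 0.75, 1.20 and 1.36 on controls (1.01, SE 0.19, adjusted p = 0.0117), and Lifr rose by 0.80 (adjusted p = 0.0358). Tslp, an epithelial cytokine that signals through Il7r, rose by 0.82 (adjusted p = 0.0366), though Cy5 alone gave 0.12 for Tslp. Csf2rb2, a mouse receptor chain for Il3, was -1.23, -1.31, -1.66, -1.06 and -1.49 on Fzd8-CRD arrays, against -0.82, 0.48, -0.44 and -0.50 on controls (-1.03, SE 0.25, adjusted p = 0.0261). Among the called genes named here, the Fzd8-CRD arrays did not overlap the controls for Osmr, Lifr or Csf2rb2. Of all genes 11.7% did not overlap in the lower direction, and the share in the higher direction is not given here. Without control replicate 2, 3 rose and 2 fell (23.8%, against 17% of all genes).

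Endothelial cells can make Il6 in inflamed vessels, and 5 of 5 endothelial markers fell (Pecam1, Cdh5, Emcn, Kdr and Tek), where 7.76% of all genes were called lower. Their list medians were -1.87 to 0.28 on Fzd8-CRD arrays, against 0.58 to 1.49 on controls. Of 9 macrophage markers 1 fell (Mrc1), with medians of -0.40 to 0.06, against -0.05 to 0.91 on controls, and no lymphocyte (adjusted p 0.151 to 0.809) or measured neutrophil marker (adjusted p 0.118 to 0.774) passed in limma. Without control replicate 2 the lymphocyte marker Cd3e fell by 0.44 (adjusted p = 0.0184), Mrc1 was no longer called (adjusted p = 0.0631) and all 5 endothelial markers still fell. The 3 erythrocyte markers measured fell (Hbb-bt by 6.47, Hba-a1 by 4.31 and Alas2 by 3.0), with medians of -2.36 to -0.87 on Fzd8-CRD arrays, against 1.08 to 4.85 on controls, the widest gap between groups among these lists, and they fell by 5.36, 3.49 and 2.26 without control replicate 2. Of 6 fibroblast markers 0 passed. Of 6 epithelial markers 0 fell and 1 rose (Krt5 by 0.80, adjusted p = 0.00715, though Cy5 alone gave 0.07), where 6.58% of all genes were called higher. The part of these cell types in the lower Il6, Il23a and Il1a was not tested.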

How the data were processed

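Expression was measured in 5 Fzd8-CRD and 4 control samples, grouped by their treatment label; replicate numbers follow accession order and pair no samples. Spot intensity means and local background medians of both dyes, and marks of spots well above background, were deposited from Agilent Feature Extraction (version 9.5.3.1 per the file headers). That software also wrote a background-corrected, dye-normalized log10 ratio, Cy5 over Cy3, per the file headers. A linear ratio is deposited in the series' table (medians 0.833 to 0.954), and on the log2 scale this deposited ratio and the scanner's had a correlation of 1 on all arrays.

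Background was corrected with normexp (offset 50) and ratios normalized by loess in limma 3.58.1 (R 4.3.3, and data.table at version 1.17.8). Of 45018 spots per array 1639 were controls, given no weight, 1229 outlier spots over all arrays were left out and 0 were saturated. Of 41174 probes, 26823 (65.1%) were kept, those marked in Cy5 as well above background on 4 arrays or more, giving 18267 genes, each by its brightest probe. The offset understates differences of dim genes, and the number of arrays limits precision. Groups were compared with limma's lmFit and eBayes on the log2 scale, checked on simulated data. Figures were drawn with matplotlib 3.10.9 and sequences read with pandas 2.3.3 (Python 3.11.15).

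The members and lists were chosen with earlier results of these data known. Named member genes were those past the threshold, the 6 ligands and 6 receptors with the largest differences, and a fixed set. Genes named outside that rule, which were chosen after their values were seen, are Il2, Il13, Il17d, Il19, Il24, Il27, Il1f5, Il1f8, Il12rb1, Il17rb, Il17rc, Il17re, Il18rap, Il1rl2, Il20ra, Il20rb, Il22ra1, Il27ra, Il28ra, Il3ra, Il1rapl2, Il17rd, Il18bp and Il4i1. Labels of all 9 arrays describe the reference alike, but as mouse, human or pooled RNA in different fields, so ratios are not levels. A change of reference between groups would enter every difference, and Cy5 alone was one of the alternatives. The Cy3 signal did differ between groups for some members in limma, as for Il21r (-0.57, adjusted p = 2.09e-05) and Il1r1 (0.53, adjusted p = 4.83e-06). For others it did not pass, as for Il6st (-0.03, adjusted p = 0.481). Whether the preparation or the slides differed was not tested. Alternatives covered background correction, source of the ratio, normalization, channel, dim-probe filters, probe choice, weights, slide and left-out arrays. The values of 1 gene that is counted in a list of related cytokine genes are not reported here.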

Additional observations from a re-analysis of the deposited data

Results flagged for a closer look

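Of 58 groups of values of the named genes, 12 held an array far from the rest of its group, where chance alone marks about 1 group in 20 if groups are independent, which genes read on the same arrays are not, and 7 of the 12 were control replicate 2. In control replicate 2, Il21r stood at 5.67 (other controls 0.39 to 0.55), Il10ra at 2.29 (0.02 to 0.11), Il15ra at 2.38 (1.61 to 1.69), Il2rg at 0.65 (-1.06 to -0.91), Il10 at 0.30 (-0.33 to -0.23) and Il1rl1 at -3.63 (-4.54 to -4.43), all above their group, while Il11 stood at 0.39, below the others (1.44 to 1.51). In control replicate 1, Il17b stood at 2.13 (others 2.97 to 3.12) and Il1r1 at -0.79 (-0.30 to -0.23). Among Fzd8-CRD arrays, Il6 stood at 2.84 in replicate 1 (others 1.5 to 1.75), Il1rl1 at -4.40 in replicate 2 (-5.37 to -5.25) and Il18 at -0.53 in replicate 5 (-0.98 to -0.87).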

How the results depend on the processing

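Counts of genes past the threshold were 3 ligands, 3 receptors, 4 signalling genes and 5 related genes. Array weights gave 7, 7, 11 and 8 of these, and the slide as a random block (consensus correlation -0.168) 6, 6, 8 and 8, where 33.7% and 30.1% of all genes passed. Averaging the closest pairs of arrays gave 0 receptors, signalling and related genes in limma (6, 6 and 8 at an unadjusted p under 0.05), and median centring also gave 0 of each (6, 5 and 8 unadjusted), with 1.84% and 3.36% of all genes passing. Cy5 alone gave 5 ligands and 3 related genes, and each kept probe on its own 5 ligand and 7 signalling probes. The scanner's log ratio and the deposited series table each gave 6 receptors (2 higher and 4 lower) and 2 signalling genes. No background correction gave 1 receptor, an offset of 16 and probes above background on all arrays 2 signalling genes each, and the mean of a gene's probes 2 related genes. In the settings from Cy5 alone to that mean, 13.6% to 18.9% of all genes or kept probes passed. With 1 array left out, the counts ran from 2 to 3 ligands, 0 to 3 receptors, 1 to 3 signalling genes and 1 to 5 related genes. Of all genes 7.33% to 17% passed in these fits. The receptor count was 0 without Fzd8-CRD replicate 1 or 5 (8 and 6 at an unadjusted p under 0.05), where 8.21% and 10.1% of all genes passed. The cause was not tested, beyond fewer arrays where some were left out or averaged. For the named members, 583 values under an alternative stayed on their side of the threshold, 53 fell short of it and 23 passed it. The sign turned for 30 values of 9 genes, of which 0 were past the threshold (limma). No paired analysis was possible because replicate numbers follow accession order only. Dim members are limited by signal over background: 31 of 84 genes could not be tested.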
